A study of Mus musculus with 6 samples.

Results

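Immediate early genes are transcribed within minutes of a stimulus without new protein synthesis, and heat shock genes encode chaperones. The set described here was a list of 33 such gene symbols, and all 33 were rows of the deposited count table of 13158 genes. It held 6 genes of AP-1 factors, 7 of other induced transcription factors, 7 of feedback and signalling proteins, 5 of growth arrest and survival proteins and 8 heat shock genes. Of the 33, 31 had enough counts for a test. The cells came from mouse forelimbs at embryonic day 13.5 (strain C57BL/6, genotype given as wild-type, no treatment), with 3 libraries from the distal and 3 from the proximal forelimb. All cells carried Sox9-CreERT2, Rosa26-tdTomato and ScxGFP and were sorted for both fluorescent reporters. The tdTomato label marks cells in which the Sox9-driven recombinase had been active, and their descendants, whether or not Sox9 was still transcribed. ScxGFP reports the tendon factor Scleraxis, and the time at which CreERT2 was induced is not given in the sources used here. In both regions the tissue was held in heated trypsin for 15 min at 37 °C before sorting. Libraries were made by bulk MARS-seq, which sequences the 3' ends of transcripts. No label says whether libraries came from separate embryos or pools, so p-values here reflect the spread among these 6 libraries alone, and that spread may be technical.

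In resting cells most immediate early genes are nearly silent. Growth factors, stretch, wounding or tissue dissociation activate MAP kinases, which act on serum response factor and its ETS partners and on CREB at promoters that need no new protein. The first products are transcription factors (Fos, Jun and Egr proteins) and brakes on the same pathways (phosphatases such as Dusp1, RNA-decay factors such as Zfp36), so a pulse of transcript rises and is cleared quickly. Heat shock genes answer a different signal: heat shock factor 1 binds repeats of a short element when unfolded proteins accumulate. Some chaperones, such as Hspa8, are made at all times, and the small heat shock protein Hspb1 is abundant in muscle and several other developing tissues. In the limb, Egr1, Egr2 and Fos-family genes are also known as targets of growth factor and mechanical signals in developing tendon and cartilage.

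Total counts were 1585631 to 2143795 in distal and 1709551 to 2623788 in proximal libraries, so 3 counts corresponded to 1.08 to 2.01 CPM (counts on a library total common to all, adjusted by TMM factors) over the 6 libraries. The members took 1.56%, 1.39% and 0.933% of counts in distal libraries 1 to 3, against 1.09%, 1.11% and 1.09% in proximal libraries 1 to 3. Both gate genes were present in all 6 libraries: Sox9 had 269 to 365 CPM in the distal libraries and 93.3 to 126 CPM in the proximal ones, and Scx had 2416 to 4122 CPM in the distal libraries and 949 to 1643 CPM in the proximal ones. Summed transcripts of 10 skeletal muscle genes were 54.9, 55.0 and 39.6 CPM in distal libraries 1 to 3, against 496, 625 and 216 CPM in proximal libraries 1 to 3. Summed levels in distal and then proximal libraries were 20.9 to 25.6 and 23.4 to 32.7 CPM for 8 endothelial, 1.90 to 5.44 and 6.84 to 16.7 CPM for 8 leukocyte, 1.26 to 12.4 and 2.21 to 81.7 CPM for 4 erythroid, 52.9 to 81.6 and 68.9 to 83.1 CPM for 6 epidermal, and 45.03 to 78.4 and 89.7 to 142 CPM for 6 Schwann and neural genes. Krt18 held most of the epidermal sum, with 46.2 to 75.7 CPM in distal and 58.9 to 72.3 CPM in proximal libraries. Ngfr held most of the Schwann and neural sum (35.6 to 68.9 and 62.9 to 111 CPM). Egfl7 held most of the endothelial sum (13.3 to 17.8 and 16.0 to 22.3 CPM). These sums therefore mostly describe single genes. Within each region the libraries were not alike. Distal libraries 1 and 2 and proximal library 1 had the highest CPM of most members and of Rn45s, the 45S ribosomal RNA precursor. The members' share of counts did not set proximal library 1 apart, at 1.09% against 1.11% and 1.09% in proximal libraries 2 and 3. Rn45s took 4.63%, 6.81% and 2.98% of counts in distal libraries 1 to 3, against 11.7%, 2.94% and 2.20% in proximal libraries 1 to 3.

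RefSeq promoter windows (build GRCm38.p6, 250 bases before to 50 after the start of transcription) were matched for 28 of the 33 members. Egr1, Myc, Ier2, Hspa8 and Hsp90aa1 had no window. Both strands were searched for 5 motifs. A pair of facing heat shock half-sites (GAANNTTC or TTCNNGAA) lay in a window of 7 of these 28 members (Jun, Egr2, Hspa1a, Hspa1b, Hspb1, Hsph1 and Dnaja1), against 17.0% of all 27025 genes and 15.1% of all 32851 windows. The binding sequence of EGR factors (GCGGGGGCG or GCGTGGGCG) lay in a window of 7 members (Fosb, Nr4a1, Klf2, Klf4, Zfp36, Socs3 and Dnaja1), against 3.93% of all genes and 3.47% of all windows. The full cyclic AMP response element, CRE (TGACGTCA), lay in those of Dusp1 and Btg2 (2.03% of all genes, 1.79% of windows), the serum response element in those of Egr2 and Zfp36 (1.81% and 1.63%), and the AP-1 site (TGANTCA) in that of Zfp36l1 (8.97% and 7.81%). A match describes letters in a window and does not show that a factor binds there. The windows below are those of Hspb1, the member that differed between regions, of Hsph1, a heat shock gene whose regions did not overlap, and of Dusp1, Btg2 and Zfp36, which varied between single libraries. Capitals mark the motif: heat shock half-site pairs in Hspb1 (chr5:135887669-135887968, plus strand; 117 and 97 bases before the start) and in Hsph1 (chr5:149636287-149636586, minus strand; 3 matches, of which 2 overlap), the CRE in Dusp1 (chr17:26508423-26508722, minus strand; 143 bases before the start) and Btg2 (chr1:134079106-134079405, minus strand; 166 bases before), and the serum response element in Zfp36 (chr7:28379179-28379478, minus strand; 58 bases before).
Hspb1: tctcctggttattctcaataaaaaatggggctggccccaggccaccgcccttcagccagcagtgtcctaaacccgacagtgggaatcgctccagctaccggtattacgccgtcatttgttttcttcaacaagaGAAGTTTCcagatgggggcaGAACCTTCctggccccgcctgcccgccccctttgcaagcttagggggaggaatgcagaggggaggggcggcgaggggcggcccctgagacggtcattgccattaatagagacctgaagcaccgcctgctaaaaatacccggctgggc
Hsph1: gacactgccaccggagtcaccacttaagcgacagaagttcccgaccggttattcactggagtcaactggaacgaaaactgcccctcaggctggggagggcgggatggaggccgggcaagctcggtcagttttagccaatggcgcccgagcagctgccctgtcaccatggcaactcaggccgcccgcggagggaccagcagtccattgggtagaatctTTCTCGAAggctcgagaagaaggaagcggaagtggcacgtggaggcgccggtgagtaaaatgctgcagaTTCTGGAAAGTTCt
Dusp1: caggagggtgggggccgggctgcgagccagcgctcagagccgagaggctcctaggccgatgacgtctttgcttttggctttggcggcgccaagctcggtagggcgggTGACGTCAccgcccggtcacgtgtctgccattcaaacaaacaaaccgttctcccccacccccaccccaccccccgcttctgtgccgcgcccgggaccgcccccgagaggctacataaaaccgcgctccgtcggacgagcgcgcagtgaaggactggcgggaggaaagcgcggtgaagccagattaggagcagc
Btg2: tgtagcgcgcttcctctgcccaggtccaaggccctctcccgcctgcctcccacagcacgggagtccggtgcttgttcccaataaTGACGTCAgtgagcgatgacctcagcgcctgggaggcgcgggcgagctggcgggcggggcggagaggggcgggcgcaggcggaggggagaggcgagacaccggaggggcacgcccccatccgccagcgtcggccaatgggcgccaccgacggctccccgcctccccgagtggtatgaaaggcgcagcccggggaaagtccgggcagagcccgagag
Zfp36: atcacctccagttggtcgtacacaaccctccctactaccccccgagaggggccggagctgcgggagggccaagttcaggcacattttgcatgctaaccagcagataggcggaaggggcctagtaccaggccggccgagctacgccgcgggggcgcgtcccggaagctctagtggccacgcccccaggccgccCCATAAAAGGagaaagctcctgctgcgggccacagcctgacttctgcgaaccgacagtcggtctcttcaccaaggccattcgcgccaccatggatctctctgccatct

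Between regions, 1 of the 31 tested members changed, the small heat shock gene Hspb1, which was lower in distal libraries. None was higher in distal libraries at an adjusted p below 0.05 in edgeR's quasi-likelihood test over all 9512 genes. Genes below that level are described as called, and they made up 3.39% of all tested genes (1.11% higher in distal, 2.27% higher in proximal libraries). DESeq2 called 1 member higher in distal libraries (Ier5; adjusted p = 0.0345) and 1 lower, against 1.42% and 2.43% of all genes, and 4 of the 31 members had an unadjusted p below 0.05 in edgeR (Jun, Egr2, Ier5 and Hspb1), as did 10.8% of all tested genes. Log2 fold changes, given throughout as distal over proximal, were positive in 24 members and negative in 7, with a median of 0.32, while 51.2% of all tested genes were positive with a median of 0.01. Most members rose and fell together over libraries, so these signs are not separate observations. Without distal library 1, Fos, Junb, Klf2 and Dusp1 stood at 0.06, 0.09, 0.10 and 0.06. Atf3, Klf6, Ier3 and Socs3 were then negative, while Egr2 and Ier5 kept 0.83 and 0.69. Ier5 and Hsph1 were higher in every distal than in every proximal library, and Hspb1 was lower in every distal one; regions were separated in this way in 7.53% of all tested genes with distal higher and in 8.67% with proximal higher. In bulk samples such as these, fewer cells of a type and less RNA per cell cannot be told apart.

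**Figure D1:**
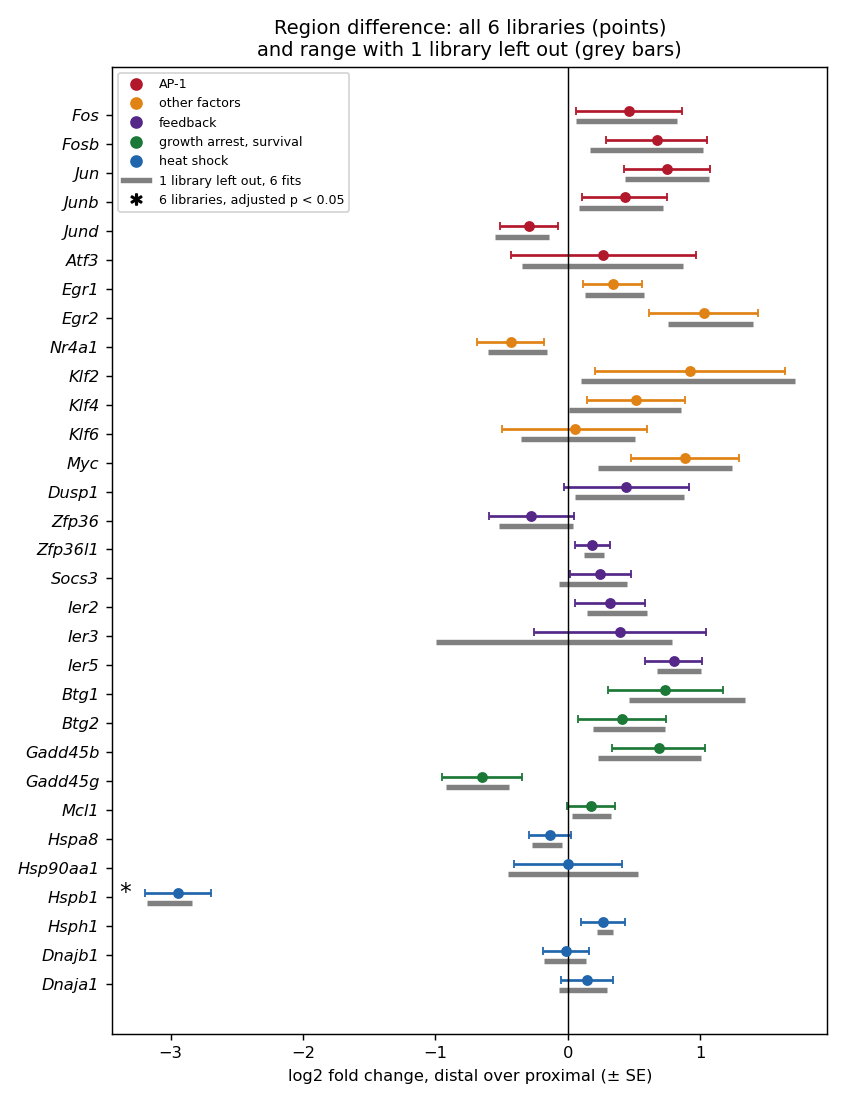
Log2 fold changes of the 31 tested members, distal over proximal, in the fit to all 6 libraries (points, with SE, coloured by role), and the range of the same value over the 6 fits that each left out 1 library (grey bars). Hspb1, at -2.95, carries the asterisk of an adjusted p below 0.05 in the fit to 6 libraries; the other 30 points lie between -0.65 and 1.03.

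The count of members called depended on which libraries were used. With distal library 3 left out, 6 members were higher in distal libraries: Fosb (log2 fold change 1.02, edgeR adjusted p = 0.0335), Jun (1.06, 0.0188), Egr2 (1.40, 0.0179), Myc (1.24, 0.0377), Dusp1 (0.88, 0.0467) and Ier5 (1.01, 0.00981), against 1.15% of all genes tested in that fit. Hspb1 was lower, against 1.97% of all. Leaving out any other single library gave 0 members higher in distal libraries by edgeR. With distal library 3 and proximal library 1 both left out, 15 members were higher in distal libraries and 2 lower, Hspb1 and Jund, against 4.47% and 4.26% of all genes. That pair is the distal library with the lowest and the proximal library with the highest levels of most members, and was set with those levels known, so region and library cannot be told apart in the 4 that remained and the count supports nothing.

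**Figure D2:**
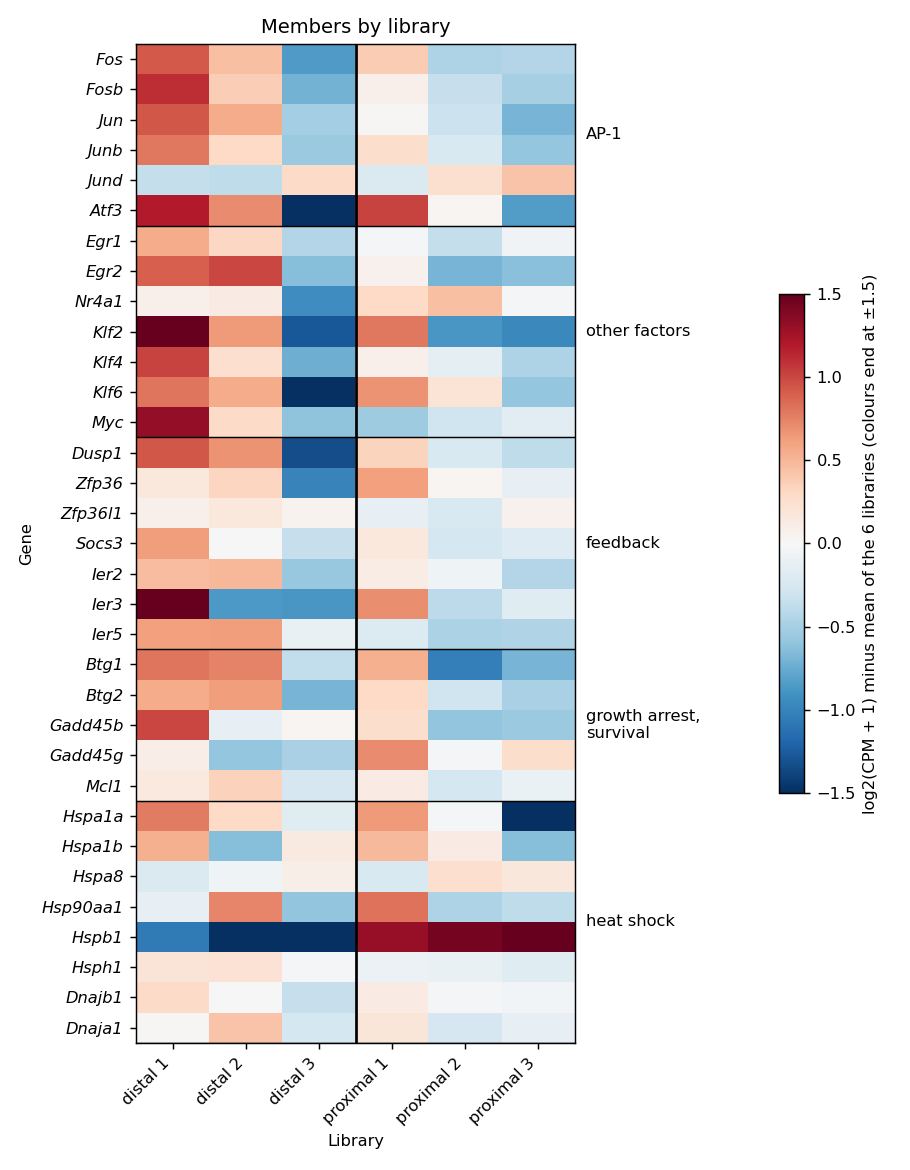
Level of all 33 members in each library, as log2(CPM + 1) minus the gene's mean over the 6 libraries (colours end at 1.5 either way), in rows by role and columns from distal 1 to proximal 3. Distal library 3 is blue in most rows from Fos to Btg2, distal libraries 1 and 2 and proximal library 1 are mostly red, and Hspb1 is the row that splits by region.

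The AP-1 genes were high in distal libraries 1 and 2 and proximal library 1 and lower elsewhere, with Jund as the exception. AP-1 is a dimer of a Jun protein with a Fos or ATF protein. Its 6 genes here summed to 7060.1, 5197 and 2821 CPM in distal libraries 1 to 3, against 4639.9, 3344 and 3206 CPM in proximal libraries 1 to 3. None of the 6 was called; 5 had positive log2 fold changes. Fos (mm10, GENCODE M21 annotation: chromosome 12, 85473890 to 85477273, plus strand), the best known immediate early gene, had 3572, 2587 and 1054 CPM in distal libraries 1 to 3, against 2460.1, 1379 and 1396 CPM in proximal libraries 1 to 3. Distal library 3 was thus the lowest of the 6 and distal library 1 the highest, so the regions overlapped. Fos averaged 2404 ± 1269 CPM in the distal libraries and 1745 ± 619 CPM in the proximal ones (SD, n = 3 each; log2 fold change 0.46 with an SE of 0.40, adjusted p = 0.84 by edgeR). Its partner Fosb had 876, 523 and 248 CPM in distal libraries 1 to 3, against 429, 321 and 286 CPM in proximal libraries 1 to 3, again with distal library 3 lowest of all (0.67, SE 0.38, edgeR adjusted p = 0.65).

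Jun (chromosome 4, 95049034 to 95052222, minus strand), which encodes the main Jun partner of Fos, had 1622, 1256 and 599 CPM in distal libraries 1 to 3, against 864, 682 and 526 CPM in proximal libraries 1 to 3. Only distal library 3 overlapped the proximal range. Its log2 fold change of 0.75 (SE 0.33) had an edgeR unadjusted p of 0.0472 and an adjusted p of 0.45. Junb, whose product can oppose Jun, had 459, 327 and 179.9 CPM in distal libraries 1 to 3, against 317, 226 and 176 CPM in proximal libraries 1 to 3; its 3' end overlaps that of Prdx2 on the other strand, and whether reads were counted by strand is not given in the sources used here. Jund, the Jun gene that is expressed in resting cells and can slow growth, ran the other way, with 468, 459 and 734 CPM in distal libraries 1 to 3, against 514, 709 and 807 CPM in proximal libraries 1 to 3. Its 3 highest libraries were the 3 in which Fos, Fosb, Jun and Junb were lowest.

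Atf3, a stress-induced factor that can bind with Jun proteins, had the widest range of all members between libraries of one region. It had 62.8, 44.9 and 5.57 CPM in distal libraries 1 to 3 (127, 71 and 10 counts), against 55.5, 27.6 and 14.7 CPM in proximal libraries 1 to 3 (83, 50 and 41 counts). Distal library 1 exceeded distal library 3 by 11.3 times (exact 95% interval 5.94 to 24.1, which like all such intervals here covers counting error only), and proximal library 1 exceeded proximal library 3 by 3.76 times (2.56 to 5.62). Its region means did not differ beyond that spread (log2 fold change 0.27 with an SE of 0.70, adjusted p = 0.97 by edgeR).

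**Figure D3:**
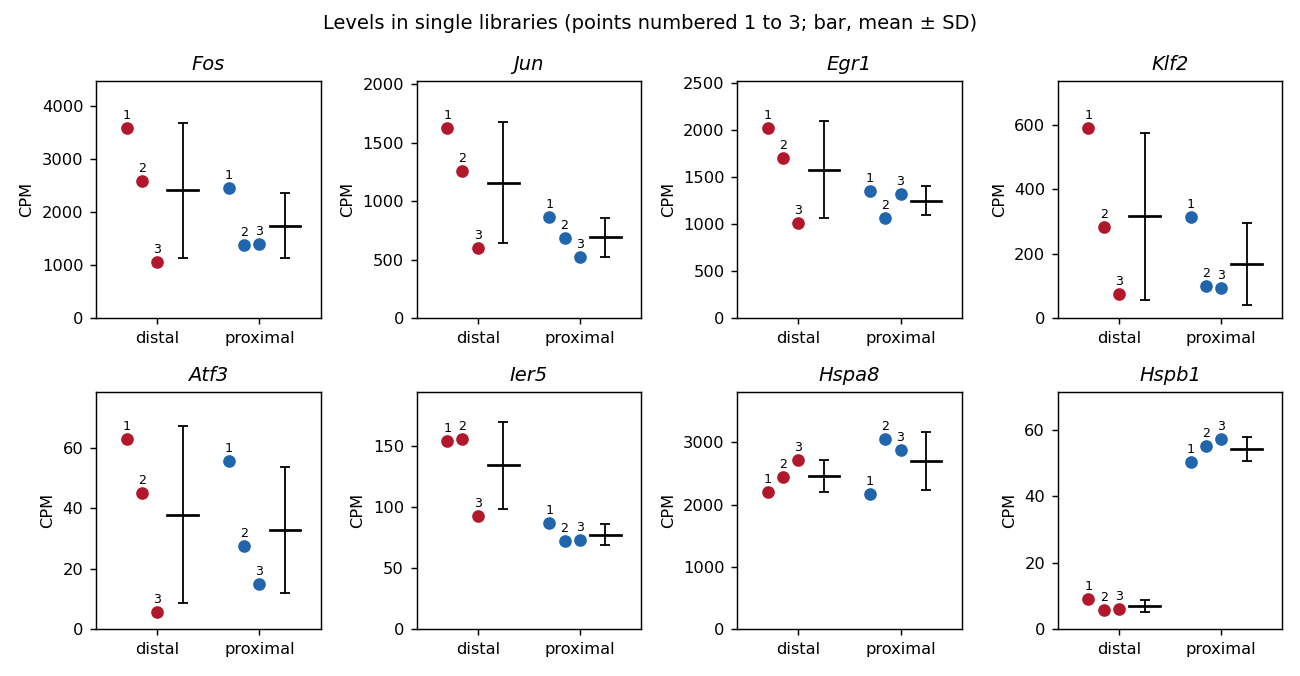
CPM of 8 members in each library (points numbered 1 to 3; distal red, proximal blue) with mean and SD of the 3 libraries of a region beside them. Fos, Jun, Klf2 and Atf3 fall steeply between distal library 1 and distal library 3, Ier5 has its 3 distal points above the proximal ones, Hspa8 varies little, and Hspb1 has 5.69 to 8.91 CPM in the distal libraries and 50.2 to 57.2 CPM in the proximal ones.

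Among the other 7 induced transcription factors none was called, 6 had positive log2 fold changes, and the same libraries were high in most of them. Their sum was 3788, 2903 and 1430.1 CPM in distal libraries 1 to 3, against 2565, 1953 and 1972 CPM in proximal libraries 1 to 3. Egr1, a zinc finger factor that answers growth factors and mechanical load in tendon cells, had 2019, 1707 and 1016 CPM in distal libraries 1 to 3, against 1352, 1071 and 1322 CPM in proximal libraries 1 to 3. Distal library 3 was again the lowest (log2 fold change 0.34 with an SE of 0.22, adjusted p = 0.73 by edgeR). Egr2, its relative, had 48.5, 52.5 and 16.2 CPM in distal libraries 1 to 3, against 26.8, 15.5 and 16.2 CPM in proximal libraries 1 to 3, so that distal libraries 1 and 2 were above all others. At 1.03 (SE 0.41) its log2 fold change was the highest among the members, with an unadjusted p of 0.0304 and an adjusted p of 0.35 in edgeR.

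The Krüppel-like factors, which link stress and quiescence signals to transcription, were among the members that differed most between single libraries. Klf2 had 589, 284 and 75.2 CPM in distal libraries 1 to 3, against 315, 98.8 and 92.8 CPM in proximal libraries 1 to 3. Distal library 1 exceeded distal library 3 by 7.84 times (6.55 to 9.43) and proximal library 1 exceeded proximal library 3 by 3.40 times (2.91 to 3.97). Klf6 had 437, 368 and 78.6 CPM in distal libraries 1 to 3, against 400.1, 289.8 and 167 CPM in proximal libraries 1 to 3. Its spread was 5.56 times among distal and 2.40 times among proximal libraries, while the regions stood at a log2 fold change of 0.05 (SE 0.55), a value that turned negative in 5 of the 16 alternative settings. Klf4 had 352, 207 and 105 CPM in distal libraries 1 to 3, against 184, 157 and 127 CPM in proximal libraries 1 to 3 with distal library 3 lowest of all. Klf2 and Klf4 had log2 fold changes of 0.92 (SE 0.72) and 0.51 (SE 0.37).

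Myc and Nr4a1 did not follow the other factors closely. Myc, which drives growth and ribosome production, had 126, 60.7 and 32.3 CPM in distal libraries 1 to 3, against 34.1, 40.3 and 43.9 CPM in proximal libraries 1 to 3. Proximal library 1, high for most members, was the second lowest of the 6 for Myc (log2 fold change 0.88 with an SE of 0.41, adjusted p = 0.49 by edgeR). Nr4a1, an orphan nuclear receptor, had 217, 223 and 107 CPM in distal libraries 1 to 3, against 253, 281 and 204 CPM in proximal libraries 1 to 3. It was the member of this group with a negative log2 fold change (-0.43, SE 0.25).

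The 7 feedback and signalling genes summed to 2323, 2098 and 1150.4 CPM in distal libraries 1 to 3, against 1802, 1444 and 1334 CPM in proximal libraries 1 to 3; none was called and 6 had positive log2 fold changes. Ier5 (chromosome 1, 155096361 to 155099636, minus strand), an immediate early gene whose product acts with heat shock factor 1, had the smallest p among members with positive fold changes. It had 154, 155 and 92.5 CPM in distal libraries 1 to 3, against 87.0, 71.8 and 72.7 CPM in proximal libraries 1 to 3. The 2 regions did not overlap, although distal library 3 lay much nearer to proximal library 1 than to its own region's others (log2 fold change 0.80, SE 0.22, edgeR unadjusted p = 0.0037, adjusted p = 0.086). Over the 6 fits that left out 1 library its log2 fold change ranged between 0.68 and 1.01. Dusp1, a phosphatase that switches off MAP kinases and holds the CRE shown above, had 384, 322 and 79.7 CPM in distal libraries 1 to 3, against 255, 172 and 155 CPM in proximal libraries 1 to 3. Its distal libraries 1 and 3 differed by 4.82 times (4.03 to 5.80), more than its region means (log2 fold change 0.44, SE 0.47). The annotated span of Dusp1 overlaps Ergic1 on the other strand.

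For Ier3, which protects cells from stress-induced death, distal library 1 alone stood out in its region. It had 113, 19.6 and 19.5 CPM in distal libraries 1 to 3, against 59.5, 27.6 and 32.0 CPM in proximal libraries 1 to 3. Distal library 1 exceeded distal library 3 by 5.79 times (4.04 to 8.51), and without distal library 1 the log2 fold change of 0.39 (SE 0.65) became -0.998. Ier2 had 883, 901 and 430.1 CPM in distal libraries 1 to 3, against 692, 614 and 469.8 CPM in proximal libraries 1 to 3, with distal library 3 lowest. Socs3, which blocks cytokine signalling, had 353, 229 and 179 CPM in distal libraries 1 to 3, against 255, 190.4 and 199 CPM in proximal libraries 1 to 3 (log2 fold change 0.25, SE 0.23). Its regions overlapped.

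The paired RNA-decay factors Zfp36 and Zfp36l1 behaved unlike each other. Both bind AU-rich elements and shorten the life of immediate early and cytokine transcripts. Zfp36, whose window holds the serum response element shown above, had 146, 163 and 64.6 CPM in distal libraries 1 to 3, against 201, 134 and 119.8 CPM in proximal libraries 1 to 3 (log2 fold change -0.28, SE 0.32). Zfp36l1, whose window holds the AP-1 site, had 290.0, 307 and 285 CPM in distal libraries 1 to 3, against 252, 235 and 286 CPM in proximal libraries 1 to 3. The spread of Zfp36l1 within regions was at the 5.70th percentile of all tested genes, and that of Zfp36 at the 90.5th.

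Growth arrest and survival genes, which slow the cell cycle or block apoptosis, were not called in any of 5 cases, and 4 had positive log2 fold changes. They summed to 600.2, 580.2 and 327 CPM in distal libraries 1 to 3, against 525, 312 and 335 CPM in proximal libraries 1 to 3. The antiproliferative gene Btg1 had 169.7, 162 and 74.7 CPM in distal libraries 1 to 3, against 141, 46.9 and 59.4 CPM in proximal libraries 1 to 3. Proximal library 1 was therefore closer to distal libraries 1 and 2 than to its own region (log2 fold change 0.74 with an SE of 0.43, adjusted p = 0.67 by edgeR). Btg2, a related gene with the other CRE shown above, had 156, 163 and 64.6 CPM in distal libraries 1 to 3, against 130.5, 85.6 and 74.8 CPM in proximal libraries 1 to 3.

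The stress sensors Gadd45b and Gadd45g, which bind and activate a MAP kinase kinase kinase, had opposite signs. Gadd45b had 68.8, 31.0 and 34.5 CPM in distal libraries 1 to 3, against 40.8, 22.1 and 22.7 CPM in proximal libraries 1 to 3 (log2 fold change 0.69, SE 0.35). Gadd45g had 19.8, 12.01 and 12.8 CPM in distal libraries 1 to 3, against 30.8, 18.2 and 22.3 CPM in proximal libraries 1 to 3 (-0.65, SE 0.30). Neither was called (edgeR adjusted p = 0.56 and 0.49), and within each region library 1 was the highest for both. Mcl1, a short-lived survival factor of the BCL2 family, had 186, 212 and 140.4 CPM in distal libraries 1 to 3, against 183, 139 and 156 CPM in proximal libraries 1 to 3, with a log2 fold change of 0.17 (SE 0.18).

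Among the heat shock genes 1, Hspb1, was called between regions. The 8 genes summed to 2816, 3184 and 3174 CPM in distal libraries 1 to 3, against 2943, 3588 and 3426 CPM in proximal libraries 1 to 3. Hspb1 (chromosome 5, 135887919 to 135889563, plus strand), which encodes the small chaperone HSP25 of the mouse, had 8.91, 5.69 and 6.13 CPM in distal libraries 1 to 3 (18, 9 and 11 counts), against 50.2, 55.2 and 57.2 CPM in proximal libraries 1 to 3 (75, 100 and 159 counts). It averaged 6.91 ± 1.75 CPM in the distal libraries and 54.2 ± 3.62 CPM in the proximal ones (SD, n = 3 each), which gave a log2 fold change of -2.95 with an SE of 0.25 (adjusted p = 9.61e-05 by edgeR). Hspb1 was called in all 16 alternative settings, with log2 fold changes of -3.18 to -2.84. Of the 50-base stretches in the last 500 bases of its transcript, 16.0% also occur in the pseudogene Hsp25-ps1, so some reads cannot be assigned with certainty.

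The muscle genes were also lower in distal libraries. Their sum was 496, 625 and 216 CPM in proximal libraries 1 to 3. Hspb1 had 50.2, 55.2 and 57.2 CPM in the same libraries. Its levels in proximal libraries 3 and 1 did not differ beyond counting error (exact 95% interval of their ratio 0.861 to 1.52). The part of muscle cells in the Hspb1 difference was not tested. Of 14 listed muscle genes 10 were deposited; the myogenic factor Myod1 had 0.495 to 1.67 CPM in distal and 15.8 to 50.2 CPM in proximal samples, and Tnnt2, Myh3 and Chrna1 were at 0 in at least 1 distal library. Cryab and Hspb2, small heat shock genes that muscle expresses, were too low for the test: Cryab had 0, 1.26 and 2.23 CPM in distal libraries 1 to 3, against 11.4, 9.38 and 3.96 CPM in proximal libraries 1 to 3. Hspb8, another small heat shock gene, had a positive log2 fold change of 0.99 (SE of 0.34, adjusted p = 0.23 by edgeR).

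The remaining heat shock genes were close between regions. Hspa8, the constitutive HSP70 gene, had 2207, 2439.6 and 2722 CPM in distal libraries 1 to 3, against 2174, 3051 and 2877 CPM in proximal libraries 1 to 3 (log2 fold change -0.14 with an SE of 0.16, adjusted p = 0.90 by edgeR). Of the 50-base stretches in the last 500 bases of its transcript, 81.8% occur in pseudogenes as well, so its counts are uncertain. Hsph1, an HSP110 nucleotide exchange factor, had 81.6, 82.8 and 70.2 CPM in distal libraries 1 to 3, against 66.9, 65.7 and 62.6 CPM in proximal libraries 1 to 3; the regions did not overlap, the difference was small (0.27, SE 0.17), and it was not called. The J-domain co-chaperones Dnajb1 and Dnaja1, which load clients onto HSP70, had log2 fold changes of -0.01 (SE 0.18) and 0.15 (SE 0.20), with 115 to 179.6 CPM in the distal libraries and 142 to 159.9 CPM in the proximal ones for Dnajb1. The 3' end of Dnaja1 overlaps that of Smu1 on the other strand.

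Hsp90aa1, the inducible HSP90 gene, had 141, 257 and 102 CPM in distal libraries 1 to 3, against 272, 111 and 118 CPM in proximal libraries 1 to 3, with a log2 fold change of 0.00 (SE 0.41). Its high libraries, distal 2 and proximal 1, are the 2 with the highest share of Rn45s. The strictly inducible HSP70 genes Hspa1a and Hspa1b, which respond to heat within minutes, were near the limit of detection and were not tested. Hspa1a had 15, 8 and 6 counts in distal libraries 1 to 3, against 10, 7 and 2 counts in proximal libraries 1 to 3. Hspa1b had 14, 4 and 9 counts in distal libraries 1 to 3, against 10, 9 and 7 counts in proximal libraries 1 to 3. Neither gene exceeded 7.42 CPM in any library.

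Most members ordered the libraries alike, across rather than along the regions. Distal libraries 1 and 2 and proximal library 1 were the 3 highest of the 6 in 20 of 31 tested members, against 15.5% of all tested genes. That set, like the other orders counted here, was chosen with the levels of the members known. An excess over all genes is partly built in by that choice, so these counts describe the members and test nothing. The opposite set, distal library 3 with proximal libraries 2 and 3, was highest in 2 members (Jund and Hspa8), against 13.7% of all. By role the first pattern held in 5 of 6 AP-1 genes, 5 of 7 other factors, 4 of 7 feedback genes, 3 of 5 growth arrest genes and 3 of 6 tested heat shock genes. With both untested genes included it held in 21 of 33. When CPM were scaled by library size alone it held in 14 of 33 and in 13 of the 31 tested, against 8.64% of all tested genes under that scaling. Proximal library 1, which had the highest Rn45s share, also had the lowest TMM factor, so this scaling lowers its levels most. Distal library 3 was the lowest of the 6 in 18 tested members (18.7% of all genes) and distal library 1 or 2 the highest in 24 (32.2%). Distal libraries 1 and 2 were both above proximal library 1 in 17 members (36.1%), and distal library 3 was below both proximal libraries 2 and 3 in 21 (36.2%).

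Size as well as order set the libraries apart. Relative to the mean of their own region on the log2 scale, members had a median of 0.41, 0.23 and -0.70 in distal libraries 1 to 3, against 0.33, -0.13 and -0.25 in proximal libraries 1 to 3. Distal library 1 exceeded distal library 3 at least 2-fold in 17 of 31 members and distal library 2 exceeded it in 14, against 4.77% and 6.28% of all tested genes, and 0 members were 2-fold lower in either comparison (2.91% and 3.04% of all). Distal library 1 exceeded distal library 2 in this way in 4 members and fell below it in 0 (2.58% and 2.02%). Proximal library 1 exceeded proximal libraries 2 and 3 at least 2-fold in 4 and 5 members (5.08% and 4.85% of all genes) and fell 2-fold below them in 0 (2.88% and 3.47%). Proximal libraries 2 and 3 differed 2-fold in 0 members in either direction (1.28% and 1.78%). These comparisons, on log2 CPM with a prior count of 2, are of single libraries and have no test.

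**Figure D4:**
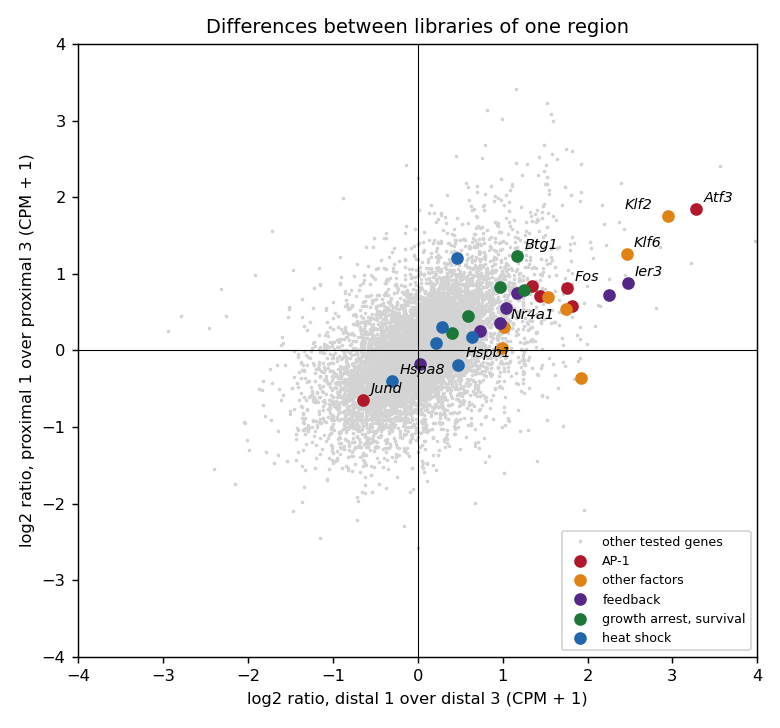
Log2 ratio of distal library 1 over distal library 3 (horizontal) and of proximal library 1 over proximal library 3 (vertical), on CPM + 1, for the 31 tested members (coloured by role) and all other tested genes (grey). Atf3, Klf2, Klf6 and Ier3 lie at the upper right, Jund and Hspa8 at the lower left, and Myc is the orange point below the line at the right; 2 ratios that share no library are plotted, and no correlation was computed.

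By role, AP-1 genes had a median deviation of 0.68 in distal library 1 and -0.90 in distal library 3, and the other factors had 0.83 and -0.94. Feedback genes had 0.34 and -0.70, and growth arrest genes 0.41 and -0.33. For heat shock genes the same values were 0.01 and -0.24. The standard deviation of log2 CPM within regions placed the median member at the 89.7th percentile of all tested genes, and 15 of 31 members were at or above the 90th. Atf3 and Klf2 were at the 99.9th and 99.8th percentiles, and the median of the heat shock genes was at the 33.5th. Hspb1 was at the 32.2nd percentile and Hsph1 at the 4.22nd, while Hsp90aa1 was at the 95.6th. The difference between heat shock and other members was not tested and rests on 6 heat shock genes. Fos, with 1892 to 7219 counts per library, was at the 96.3rd.

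**Figure D5:**
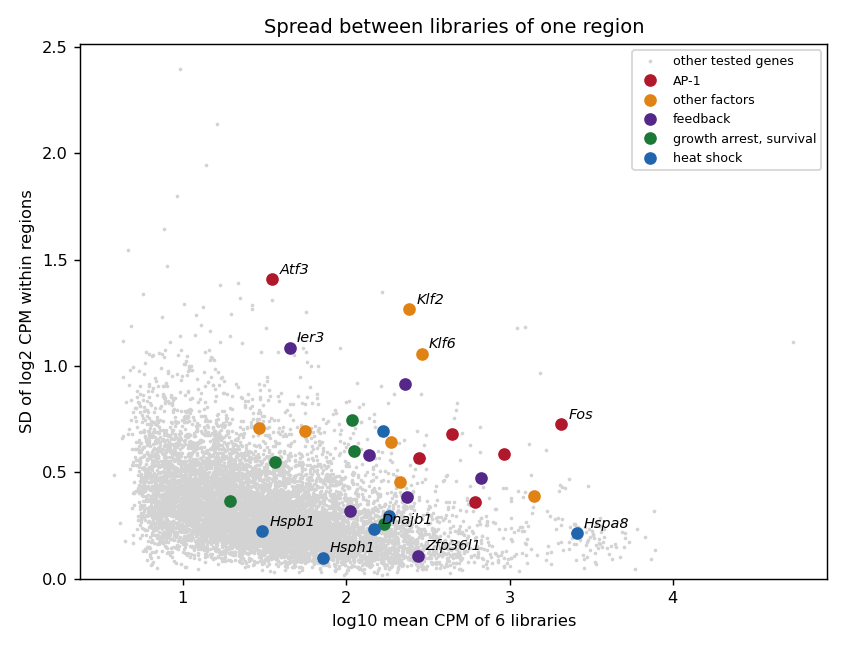
Standard deviation of log2 CPM within regions (vertical) against log10 of the mean CPM over the 6 libraries (horizontal) for the 31 tested members (coloured by role) and all other tested genes (grey). Most AP-1, other factor and feedback members lie above genes of like abundance, while Hspb1, Hsph1, Hspa8 and Zfp36l1 lie among them.

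Rn45s varied with the members: it was highest in the same 3 libraries, although in another order, with proximal library 1 first for Rn45s and distal library 1 first for 16 of 31 members (16.6% of all genes). The part of library composition in the pattern was not tested. With Rn45s left out before scaling, the pattern held in 21 of 33 members, the same number as with it. TMM already offsets a single abundant gene, so this count says nothing on the part of Rn45s. With scaling by library size alone, the pattern held in 13 of the 31 tested members. The erythroid, endothelial and epidermal sums were highest in proximal library 3, which had low member levels. The same held for the muscle and the Schwann and neural sums in proximal library 2. The leukocyte sum was highest in proximal library 1. Among distal libraries, the erythroid, leukocyte and epidermal sums were highest in library 1. The Schwann and neural sum was highest in distal library 2, the endothelial sum in distal library 3, and the muscle sum was lowest there. In distal library 2 Ngfr had 68.9 CPM of the Schwann and neural sum, while Sox10 had 1.26 CPM, its lowest distal level. The part of these cell types in the pattern was not tested.

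Immediate early genes outside the list held 2 called genes, Trib1 and Phlda1. Of 48 further immediate early genes, 46 were deposited and 35 tested; 1 was called higher in distal libraries and 1 lower, against the 1.11% and 2.27% given above, and 28 of 35 had positive log2 fold changes with a median of 0.31. Trib1, a pseudokinase gene, had 164, 173 and 111 CPM in distal libraries 1 to 3, against 85.0, 67.3 and 54.3 CPM in proximal libraries 1 to 3 (log2 fold change 1.13 with an SE of 0.22, adjusted p = 0.019 by edgeR). It no longer passed when distal library 1 or 2 or proximal library 2 or 3 was left out, at adjusted p of 0.087, 0.084, 0.095 and 0.087. Phlda1, a pleckstrin-homology protein gene induced by growth factors, had 159, 216 and 222 CPM in distal libraries 1 to 3, against 388, 366 and 392 CPM in proximal libraries 1 to 3. It was lower in distal libraries by a log2 fold change of -0.94 (SE of 0.15, adjusted p = 0.0066 by edgeR) and was called in all 16 alternatives. Id1, an inhibitor of differentiation, and Klf5 had 0.81 (SE 0.22, edgeR adjusted p = 0.095) and 1.03 (SE 0.36, 0.23). The pattern of 3 high libraries held in 17 of these 35 genes, against 15.5% of all tested genes.

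The kinase pathway above the immediate early genes held 1 called gene. Of 32 genes of the MAP kinase pathway and serum response, 29 were deposited and 25 tested. Of these 25, 0 were called higher in distal libraries and 1 lower, against 1.11% and 2.27% of all tested genes. The unadjusted p was below 0.05 in 5 by edgeR, against 10.8% of all genes. DESeq2 called 1 higher and 0 lower, against 1.42% and 2.43% of all genes. The median log2 fold change was -0.01, and the library pattern held in 6 of 25, against 15.5% of all tested genes. Spry4, an inhibitor of receptor signalling, had 25.2, 31.6 and 27.9 CPM in distal libraries 1 to 3, against 46.2, 52.4 and 52.5 CPM in proximal libraries 1 to 3 (-0.84, SE 0.20, edgeR adjusted p = 0.045). The call was kept in 9 of 16 alternatives and lost without distal library 1, 2 or 3 or proximal library 2 or 3, at adjusted p of 0.21, 0.0916, 0.096, 0.18 and 0.18. It was also lost with library size alone and with DESeq2, at 0.106 and 0.0615. Dusp6, a phosphatase specific for ERK and a known target of FGF signals in the limb, had 74.7, 64.5 and 36.8 CPM in distal libraries 1 to 3, against 29.4, 22.1 and 29.5 CPM in proximal libraries 1 to 3. Its regions did not overlap, and it was not called (1.12, SE 0.28, edgeR adjusted p = 0.060). The edgeR adjusted p was 0.00743 without distal library 3, its lowest distal library, and 0.061 to 0.27 without any other single library. Dusp10, a phosphatase of stress kinases, and the ETS factor Elk3 had -1.01 (SE 0.30, edgeR adjusted p = 0.13) and 0.48 (SE 0.17, 0.24).

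The wider chaperone network held no called gene. Of 50 further chaperone and co-chaperone genes, 49 were deposited and 45 tested, with a median log2 fold change of 0.08. In either direction 0 were called, against 3.39% of all tested genes. The unadjusted p was below 0.05 in 4 by edgeR, against 10.8% of all genes, and DESeq2 called 0. The pattern of 3 high libraries held in 11 of 45, against 15.5% of all tested genes, and the median spread was at the 32.9th percentile. The genes with the smallest p were Hspb8, given above, Fkbp5 at 0.59, Bag2 at -0.60 and Hspa13 at 0.84 (edgeR adjusted p = 0.23, 0.34 and 0.43). Of the heat shock factors and their regulators, Hsf1 had 0.21 (SE 0.22) and Hsbp1 0.10, and neither was called.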

How the data were processed

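Raw counts per gene, as deposited, were used throughout. The table also gives normalized counts, a signal that the authors made by dividing each library by 1 size factor, per the file headers and the values; the normalized columns were not used further. Build mm10 and the tools cutadapt 1.8.3, bcl2fastq 2.17.1.14, HTSeq, TopHat2 and DESeq2 are listed without roles, per the submitters' processing notes. Which annotation and strand were counted, and whether molecular identifiers were, is not given in the sources used here; duplicated molecules would make counting intervals too narrow. The comparison of regions used R 4.3.3 and edgeR 4.0.16 (TMM, filterByExpr with a minimum count of 10 and total of 15, robust quasi-likelihood F test, Benjamini-Hochberg over 9512 genes, threshold 0.05), checked on simulated data. Each SE was taken as |log2 fold change| divided by the root of the F statistic. CPM are counts scaled to a common library total and by TMM. Spread is the SD of log2 CPM (prior count 2) about region means. Intervals are exact, at 95%. Alternatives were other scalings, filters, DESeq2 1.42.0, limma 3.58.1, a replicate block, left-out libraries, Rn45s left out and a threshold of 0.01. The members, lists, left-out libraries and counted library orders were chosen with earlier results of these data known. All members are named. Library values were set to be printed for called members, the 12 with the widest ratio within a region and the most abundant of each role, and were added for others after seeing them. From other lists, called genes and up to 4 with the smallest p are named, and Cryab, Hspb2 and Hspb6 were added after their values were seen. Replicate numbers were not used to pair libraries.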

Additional observations from a re-analysis of the deposited data

How the results depend on the processing

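Of the member fold changes under the alternatives, 452 kept their direction and side of the threshold, 25 newly passed it, 0 were lost and 19 changed sign; the cause was not tested. Genes higher in distal (106) and in proximal libraries (216) numbered 441 and 421 without proximal replicate 1 and distal replicate 3, 42 and 101 at an adjusted p of 0.01, and 42 to 114 and 114 to 220 without single libraries. Members called higher in distal libraries numbered 1 with DESeq2 (Ier5), 0 to 6 without single libraries and 15 without both; those higher in proximal libraries numbered 2 without both. Further immediate early genes higher in distal libraries numbered 2 with library size alone or DESeq2, 0 to 2 without single libraries, 14 without both and 0 at an adjusted p of 0.01. MAP kinase genes higher in distal libraries numbered 1 with no filter, DESeq2 or both libraries left out, and 0 to 1 without single ones; those higher in proximal libraries numbered 0 with library size alone, DESeq2 or an adjusted p of 0.01, 0 to 1 without single libraries and 2 without both. Further chaperones higher in distal libraries numbered 4 without both. Replicates 1 to 3 carry the same 3 sample numbers in their titles in both regions, and no label says what these mark. Same-numbered libraries correlated at 0.35, -0.14 and 0.48 in their deviations from region means, so pairs 1 and 3 deviated together and pair 2 did not, and not every library correlated best with its own number. The numbers were therefore not taken as pairs, although a shared source was not tested. With the replicate block, 184 genes, 2 members (Jun, adjusted p = 0.0201, and Ier5, 0.0249), 3 further immediate early genes and 1 MAP kinase gene were higher in distal libraries. Log2 fold changes changed sign with limma-voom in Atf3 (-0.027) and Klf6 (-0.18) and with the replicate block in Klf6 (-0.16). With libraries left out they ranged between -0.35 (without distal 1) and 1.41 for Atf3, -0.35 (without distal 1) and 0.83 for Klf6, -0.52 and 0.29 for Zfp36, -0.067 (without distal 1) and 0.59 for Socs3, -0.998 (without distal 1) and 1.18 for Ier3, -0.45 (without distal 2) and 0.79 for Hsp90aa1, -0.18 and 0.19 for Dnajb1, -0.063 (without distal 2) and 0.43 for Dnaja1, and -0.0502 and 0.33 for Hsf1, each highest without both libraries except Hsf1, which was then lowest. The spread within regions had a median percentile of 87.1 with a prior count of 0.5. Depth limits Hspa1a and Hspa1b, which had 48 and 53 counts in all.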
